A study of Mus musculus with 1087 samples.

Results

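The BCL2 family decides whether a cell commits to the mitochondrial pathway of apoptosis, and 10 of its genes were followed here through the emergence of blood stem cells in the mouse embryo: Bcl2, Bcl2l1, Mcl1, Bax, Bak1, Bcl2l11, Bid, Bad, Bbc3 and Bmf. They were picked by symbol through the GRCm38 annotation, and all 10 were among the 46078 genes of the count table. Its columns are single cells of the AGM (aorta-gonad-mesonephros), the region where the first stem cells of blood arise, dissected with the stretch of the vitelline and umbilical arteries that lies in the trunk. All embryos came from C57BL/6HsdJOla females mated with Gata2V/V males, so every cell carried the Gata2V/+ genotype, in which 1 Gata2 allele reports its activity as Venus fluorescence. Tissue was digested with collagenase, dead cells were gated out with Hoechst, and cells were sorted with antibodies to CD31, cKit and CD27; each title calls its cell KitHi, and the labels give IAHC cells as the cell type.

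There were 5 groups. G2VInt cells, with intermediate Venus, were taken on 3 days, with 87 cells on E10, 130 on E11 and 25.7% of all cells on E11.5. The same last day gave CD27+ cells (10.9% of all cells), whose Venus level the labels do not give, and G2VLo cells, with low Venus (43.4%). The labels also assign each cell to a cluster, and all but the CD27+ cells to a class named HC1, EC, HC2, U1 or U2, without spelling these names out. No embryo, litter or sort is named, so each group is 1 sample, cells are not replicates, and no difference between groups was tested. The classes and clusters were built from the same reads, so contrasts between them are descriptions. Levels are CPM, the reads of a gene summed over the cells of a unit and scaled to a common total. Shares are percentages of cells with at least 1 read after every cell was thinned to 100000 reads. A gene counted as measured in a comparison when 1 of the 2 units reached 10 CPM and at least 5% of that unit's thinned cells had a read, and as called past a 2-fold ratio. The 95% intervals of ratios, exact for 2 Poisson counts, and of shares, Clopper-Pearson, cover counting error only. Those of ratios are too narrow, because copies made by PCR count as reads and summed counts leave out the spread between cells. Those of shares treat cells as independent, though cells of a group share their source.

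Members of the family act in 3 layers. Anti-death proteins (Bcl2, Bcl-xL from Bcl2l1, and Mcl1) hold the others in check at the outer mitochondrial membrane. The effectors Bax and Bak, once freed, open pores in it that release cytochrome c and start the caspases. BH3-only proteins (Bim from Bcl2l11, Bid, Bad, Puma from Bbc3, and Bmf) report stress, loss of growth factors or loss of attachment by binding the anti-death proteins or the effectors. Mcl1 is known to be required by hematopoietic stem cells, Bcl-xL by maturing red cells, and Bim for the removal of surplus blood cells.

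Median depth was 2121423, 2212898 and 1892779 reads per cell at E10, E11 and E11.5 in G2VInt, 621544 in CD27+ and 539090 in G2VLo cells. Mitochondrial genes took a median of 2.04%, 2.62% and 2.93% of the reads on these days in G2VInt, 8.29% in CD27+ and 6.41% in G2VLo cells. The library numbers of the groups form separate blocks, that of the CD27+ cells lying as 1 unbroken run inside the range of G2VLo, so group and block cannot be told apart. As a look at spread inside a group, levels were also computed over its lower and its upper library numbers. The class names were set against marker lists. Summed over 8 endothelial genes, HC1 cells held 1299.7, 2052 and 1894 CPM at E10, E11 and E11.5 in G2VInt and 1459 in G2VLo, and EC cells 7392, 8124, 7511 and 6054 in the same groups. HC1 cells led in stem and progenitor genes, with 1156 to 1576 CPM over 8 genes, against 127.8 to 220.5 in EC cells. HC2 cells led in myeloid, erythroid and mast cell genes. U1 cells of the G2VLo gate held 13896 CPM over 8 macrophage genes, against 33.5 in HC1 cells of that gate.

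Set per kilobase of exon, the only scale on which levels of different genes were compared, Bax was the highest member in every class and group with at least 10 cells, at 51.6 to 98.8 CPM per kilobase. Bax (ENSMUSG00000003873, chr7:45461697-45466898, minus strand, GRCm38) is the effector that moves from cytosol to mitochondria. Its level stayed within 81.3 to 155.7 CPM over all classes, and a read was found in 85.7% to 100% of the cells of each. Bak1 (ENSMUSG00000057789, chr17:27019810-27029009, minus strand) is the effector that sits in the membrane. Per kilobase it was the lowest member over all cells of each group and in EC and U2 cells. In HC1, HC2 and U1 cells, Bmf, Bcl2l11 or Bcl2 was the lowest. Bak1 had 3.72, 3.36 and 4.13 CPM at E10, E11 and E11.5 in G2VInt, 2.77 in CD27+ and 1.85 in G2VLo cells. It thus passed the limit of 10 CPM in no comparison. Its exons overlap those of Ggnbp1 on the other strand. Mcl1 and Bcl2l1 followed Bax in the EC and HC1 cells of the G2VInt gate. Bcl2, Bmf and Bbc3 stayed under 10 CPM per kilobase in each class and group with at least 10 cells.

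**Figure D1:**
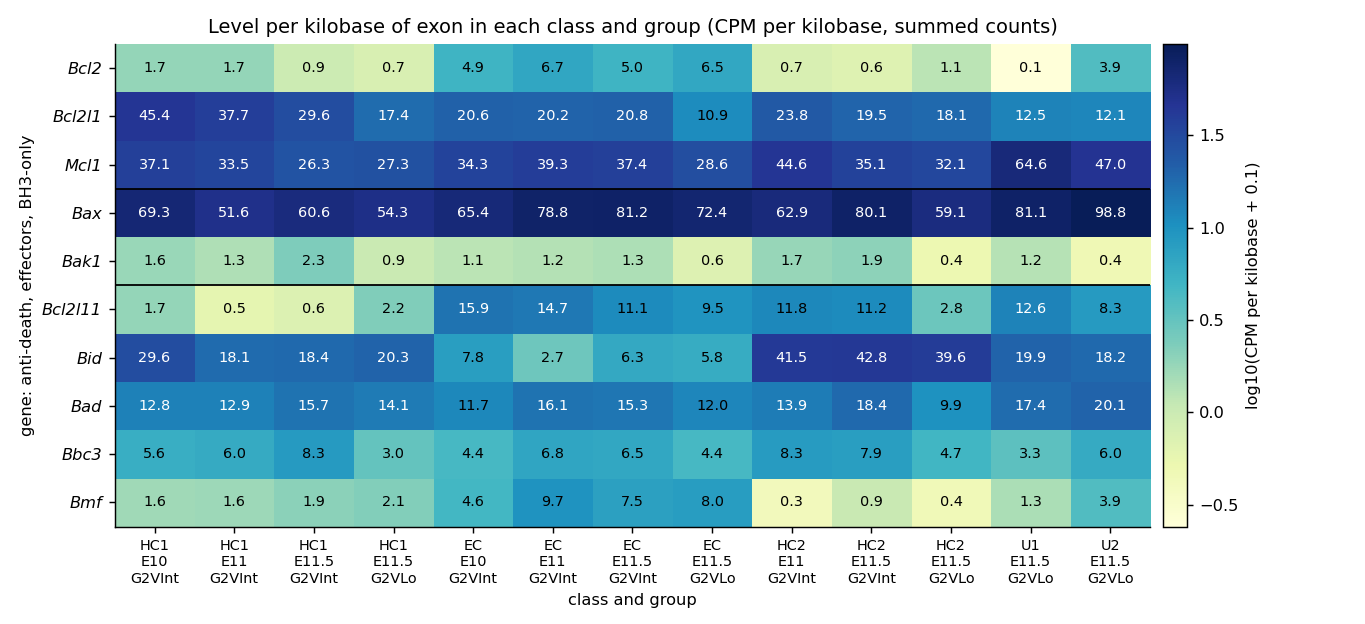
Level of each gene (down the page, in 3 layers) in each class and group (across), in CPM per kilobase of exon; colour is on a log scale. Bax is the highest in all columns, Bcl2l11, Bmf and Bcl2 are darker in EC than in HC1 columns, and Bid is darkest in the HC2 columns.

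Between HC1 and EC cells, 4 of the 10 genes differed past 2-fold the same way in all 4 groups with both classes. Bcl2, Bcl2l11 and Bmf were lower in HC1 than in EC cells, and Bid was higher. Of the 10 genes 9, 9, 9 and 8 were measured at E10, E11 and E11.5 in G2VInt and in G2VLo. Of these, 5, 4, 4 and 4 were past 2-fold. Among all measured genes 29%, 29.2%, 24% and 24% were past 2-fold in the same comparisons, so a call was common between these classes. The median log2 ratio of the measured members was 0.11, -0.32, -0.42 and -0.24, and that of all genes 0.17, 0.18, 0.19 and 0.19.

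Among the anti-death genes, Bcl2 (ENSMUSG00000057329, chr1:106538178-106714274, minus strand), the founding member of the family, had, in HC1 cells, 15.9 (E10), 15.8 (E11) and 7.93 CPM (E11.5) in the G2VInt gate and 6.15 CPM in the G2VLo gate. EC cells had 45.1 (E10), 61.2 (E11) and 45.3 CPM (E11.5) in the G2VInt gate and 59.2 CPM in the G2VLo gate. The level in HC1 was 2.83-fold, 3.88-fold, 5.71-fold and 9.62-fold lower. A read was found in 30.4% (21.7 to 40.3) of HC1 and 77.05% (68.6 to 84.2) of EC cells in the E11.5 G2VInt gate. Bcl2 shares 558 exon bases with D630008O14Rik on the other strand. The call was lost at E10 and E11 in the upper library numbers, where EC had 25.1 and 20.9 CPM over 6 and 5 cells and the log2 ratio was -0.30 and -0.49. At E11.5 the lower and upper library numbers of HC1 did not overlap with those of EC in either gate. Bcl2l1 (ENSMUSG00000007659, chr2:152780668-152831728, minus strand) went the other way. HC1 cells had 208.2 (E10), 172.8 (E11) and 135.6 CPM (E11.5) in the G2VInt gate and 79.6 CPM in the G2VLo gate, and EC cells had 94.6 (E10), 92.8 (E11) and 95.5 CPM (E11.5) in the G2VInt gate and 49.9 CPM in the G2VLo gate. Its ratio passed 2-fold only at E10, where it was 2.199 (2.11 to 2.29). It was 1.86, 1.42 and 1.59 at E11, at E11.5 in G2VInt and in G2VLo. Mcl1 (ENSMUSG00000038612, chr3:95658788-95663176, plus strand), a short-lived protein that is made and destroyed quickly, differed by less than 2-fold in each group, with 89.9 to 126.97 CPM in HC1 and 97.9 to 134.2 CPM in EC cells.

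Among the BH3-only genes, Bcl2l11 (ENSMUSG00000027381, chr2:128126038-128162547, plus strand) showed the widest gap. Its product Bim can bind all anti-death proteins and the effectors. HC1 cells had 14.01 (E10), 3.96 (E11) and 4.98 CPM (E11.5) in the G2VInt gate and 17.4 CPM in the G2VLo gate, and EC cells had 127.3 (E10), 118.2 (E11) and 88.9 CPM (E11.5) in the G2VInt gate and 76.5 CPM in the G2VLo gate. This made HC1 9.08-fold, 29.9-fold, 17.8-fold and 4.39-fold lower. The median HC1 cell had 0 CPM in E11.5 G2VInt and the median EC cell 70.3 CPM, and a read was found in 12.7% (6.96 to 20.8) of HC1 and 90.2% (83.4 to 94.8) of EC cells. Single cells weighed on the low HC1 sums: without the cell with the most Bcl2l11 reads, HC1 had 9.10 CPM at E10 and 2.49 CPM at E11.

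Bmf (ENSMUSG00000040093, chr2:118528757-118549687, minus strand), tied to the cytoskeleton and to loss of attachment, had, in HC1 cells, 8.16 (E10), 8.21 (E11) and 10.1 CPM (E11.5) in the G2VInt gate and 11.3 CPM in the G2VLo gate. EC cells had 24.04 (E10), 51.1 (E11) and 39.3 CPM (E11.5) in the G2VInt gate and 41.95 CPM in the G2VLo gate, and HC1 was 2.95-fold, 6.22-fold, 3.90-fold and 3.72-fold lower. In the lower library numbers of E10, with 8 EC cells, the log2 ratio was -0.86. Bid (ENSMUSG00000004446, chr6:120891930-120916853, minus strand), which caspase 8 cuts to link death receptors to mitochondria, had, in HC1 cells, 105.2 (E10), 64.1 (E11) and 65.5 CPM (E11.5) in the G2VInt gate and 71.97 CPM in the G2VLo gate. EC cells had 27.8 (E10), 9.64 (E11) and 22.5 CPM (E11.5) in the G2VInt gate and 20.8 CPM in the G2VLo gate. Its ratio was 3.78, 6.65, 2.91 and 3.47. The lower and upper library numbers of HC1 stood above both of EC in all 4 groups. The immediate-early and stress list summed to 1437, 1055, 1112 and 2291 CPM in HC1 and 3306, 2032, 1877 and 2159.7 CPM in EC cells, and its part was not tested. Bid and Bcl2l13 share 628 exon bases on opposite strands, and the strand setting of the counting is not given in the sources used here, so reads there cannot be assigned with certainty. Bad (ENSMUSG00000024959, chr19:6941861-6951899, plus strand), which growth factor signalling holds inactive by phosphorylation, differed by less than 2-fold, with 32.7 to 40.3 CPM in HC1 and 30.04 to 41.1 CPM in EC cells. It shares 524 exon bases with Gpr137. Bbc3 (ENSMUSG00000002083, chr7:16308393-16318205, plus strand), a target of p53, was low in both, with 6.44 to 17.7 CPM in HC1 and 9.24 to 14.4 CPM in EC cells.

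**Figure D2:**
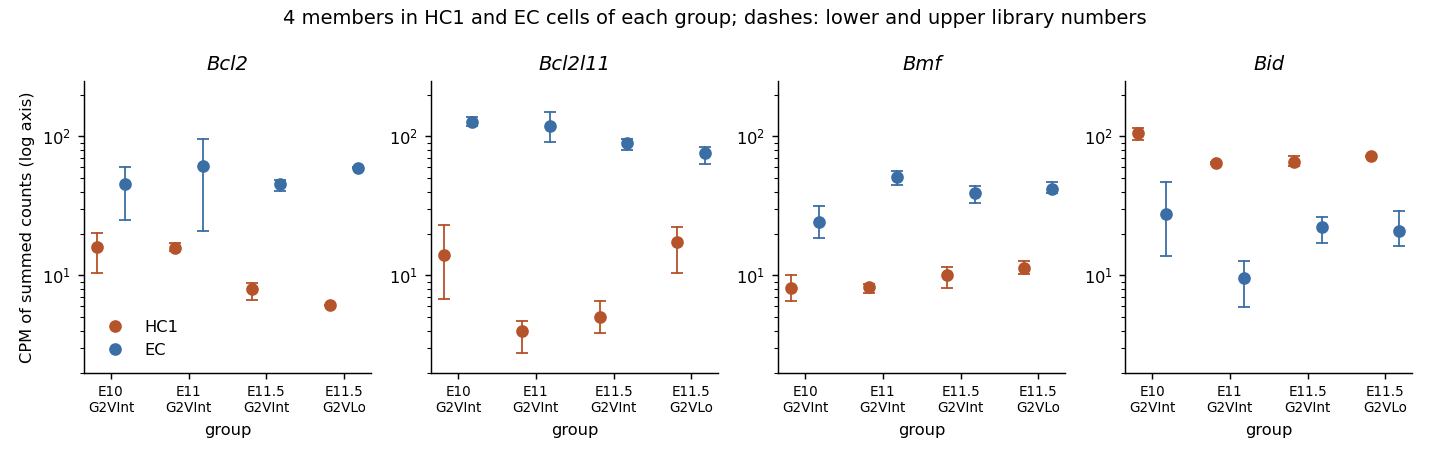
CPM of summed counts on a log axis for Bcl2, Bcl2l11, Bmf and Bid in HC1 (left point of each pair) and EC cells (right point) of 4 groups. Dashes are the levels over the lower and upper library numbers, which stand far apart for Bcl2 in EC cells at E10 and E11, where EC held 14 and 15 cells.

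Taken cell by cell at equal depth, a median of 6 members had a read in HC1 and 7 in EC cells of E11.5 G2VInt.

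The promoters of these 4 genes are shown because the genes moved past 2-fold between HC1 and EC cells in every group. The windows are RefSeq's (GRCm38.p6), from 250 bases before to 50 bases from the start of transcription, read 5′ to 3′ on the gene's strand, and for a gene with several the window nearest to the GENCODE gene start was taken. They lie at chr1:106714241-106714540 for Bcl2, chr2:128125788-128126087 for Bcl2l11, chr2:118549637-118549936 for Bmf and chr6:120916775-120917074 for Bid. Capitals mark GGGCGG, the core of a GC box, and GTAAACA, the core bound by FOXO factors, on either strand.
Bcl2: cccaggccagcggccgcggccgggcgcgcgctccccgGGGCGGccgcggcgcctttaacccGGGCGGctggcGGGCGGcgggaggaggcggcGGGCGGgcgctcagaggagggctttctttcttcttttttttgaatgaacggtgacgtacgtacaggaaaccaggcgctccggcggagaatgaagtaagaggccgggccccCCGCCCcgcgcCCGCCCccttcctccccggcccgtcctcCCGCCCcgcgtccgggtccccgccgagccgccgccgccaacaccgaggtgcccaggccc
Bcl2l11: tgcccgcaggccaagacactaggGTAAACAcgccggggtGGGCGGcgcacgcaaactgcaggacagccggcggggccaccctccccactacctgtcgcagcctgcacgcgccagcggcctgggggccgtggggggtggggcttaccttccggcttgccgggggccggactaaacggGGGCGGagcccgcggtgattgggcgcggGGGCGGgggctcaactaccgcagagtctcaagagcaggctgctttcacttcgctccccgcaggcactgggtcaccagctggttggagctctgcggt
Bmf: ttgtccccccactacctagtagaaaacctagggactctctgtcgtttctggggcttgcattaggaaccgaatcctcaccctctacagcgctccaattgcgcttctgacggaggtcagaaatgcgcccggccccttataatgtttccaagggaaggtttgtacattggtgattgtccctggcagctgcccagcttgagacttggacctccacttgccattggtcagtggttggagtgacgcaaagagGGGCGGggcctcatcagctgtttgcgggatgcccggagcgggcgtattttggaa
Bid: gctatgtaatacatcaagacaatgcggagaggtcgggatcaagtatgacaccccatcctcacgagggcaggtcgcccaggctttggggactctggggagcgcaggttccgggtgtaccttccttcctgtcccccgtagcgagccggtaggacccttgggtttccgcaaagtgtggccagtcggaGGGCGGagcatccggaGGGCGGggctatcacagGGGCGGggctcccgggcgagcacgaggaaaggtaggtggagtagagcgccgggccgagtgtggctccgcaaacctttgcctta
The GC box core GGGCGG was found 7 times in the Bcl2 window, 3 times in that of Bcl2l11, 3 times in that of Bid and once in that of Bmf, and 35.7% of all 32851 windows of this length hold it. GTAAACA was found in the Bcl2l11 window only among these 4, and 3.65% of all windows hold it. Foxo1, which encodes a FOXO factor, had 38.2 CPM in HC1 and 130.6 CPM in EC cells of E11.5 G2VInt. Its part in the level of Bcl2l11 was not tested. Of 5 other motifs searched on both strands, CCGGAA (ETS) was found once each in the Bcl2l11 and Bid windows, and 14.9% of all windows hold it. AGATAA, read by the factors of the Gata2 family (11.2% of all windows), TGTGGT (RUNX, 16.8%), TGANTCA (AP-1, 7.81%) and CACGTG (E box, 7.15%) were in none of the 4 windows shown. A Bmf window not shown, at chr2:118547550-118547849, held TGTGGT 3 times. A match describes letters and shows no binding, and the lack of one says nothing of the factor.

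The rest of the pathway was described by 5 lists, with counts over E10, E11 and E11.5 G2VInt and G2VLo in that order. They stand beside 29%, 29.2%, 24% and 24% of all genes past 2-fold, and nothing particular to a list is read from them. Of 14 other BCL2 family genes 7, 7, 7 and 8 were measured, 1, 1, 1 and 2 were past 2-fold higher in HC1 and 2, 2, 2 and 2 lower. Bik, a BH3-only gene, and Bok, an effector-like gene, were the lower ones in all 4 groups. In E11.5 G2VInt Bik had 0.946 CPM in HC1 and 45.6 CPM in EC cells, and Bok had 29.9 CPM in HC1 and 118.97 CPM in EC cells. Bcl2l14 had 14.9 CPM in HC1 and 0.176 CPM in EC cells there. Of 12 genes of the apoptosome and caspases 11, 11, 11 and 10 were measured, 2, 1, 1 and 2 were higher and 1, 1, 0 and 1 lower. Of 11 caspase inhibitors and death receptor genes 10, 10, 10 and 10 were measured, 0, 1, 0 and 1 were higher and 3, 1, 0 and 0 lower. None of the 3 mitochondrial channel genes, all measured in each group, passed 2-fold. Of 9 known transcriptional regulators of members 8, 8, 8 and 8 were measured, 1, 2, 1 and 1 were higher and 1, 1, 2 and 1 lower. Stat5a, which is known to drive Bcl2l1 behind cytokine receptors, had 71.9 CPM in HC1 and 21.9 CPM in EC cells. Its part in the level of Bcl2l1 was not tested.

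Within the anti-death layer, Bcl2l1 led in 53.5% to 58.1% and Mcl1 in 41.9% to 45.5% of HC1 cells of the G2VInt gate. Mcl1 led in most cells of the other classes and in most HC1 cells of G2VLo. The gene with the most reads per kilobase among Bcl2, Bcl2l1 and Mcl1 was counted in each thinned cell. Bcl2l1 led in 58.1%, 54.5% and 53.5% of HC1 cells at E10, E11 and E11.5 in G2VInt and in 34.2% in G2VLo. The intervals of these shares were 44.8 to 70.5%, 42.8 to 65.9% and 43.3 to 63.5% in G2VInt and 26.9 to 42.04% in G2VLo. They treat cells as independent, and no difference was tested with them. The clusters of the clustering of all cells differed in G2VInt. In cluster 7, Mcl1 led in 54.5% of 11 cells at E10 and 53.3% at E11. At E11.5 Bcl2l1 led in 50.8% and Mcl1 in 44.4% of that cluster. In cluster 8, Bcl2l1 led in 57.4%, 67.6% and 61.1% at E10, E11 and E11.5. Bcl2l1 led in 28.6%, 20% and 27.05% of EC cells at E10, E11 and E11.5 in G2VInt and in 16.8% in G2VLo. Mcl1 led in 71.4% of the E11 and 75% of the E11.5 HC2 cells of G2VInt, and in 87.01% of U1 cells in G2VLo. Bcl2 led in at most 5.98% of a class, in EC cells of G2VLo. Only cells with a read of at least 1 of the 3 genes were counted.

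Across the 3 days, the anti-death genes of HC1 cells in the G2VInt gate were lower at E11.5 than at E10, past 2-fold only for Bcl2. This was not particular to that layer. Bid had 105.2, 64.1 and 65.5 CPM on the 3 days, while Bad, Bbc3 and Bmf were higher at E11.5 than at E10. The median log2 ratio of the 9 measured members was -0.50, and that of all genes -0.04. Bcl2l1 had 208.2 CPM on E10, 172.8 on E11 and 135.6 on E11.5, and its lower and upper library numbers did not overlap between E10 and E11.5. Mcl1 had 126.97, 114.4 and 89.9 CPM, and Bcl2 15.9, 15.8 and 7.93 CPM, on these days. Bcl2 was thus nearly level between E10 and E11, and the clusters inside HC1 differed. In the clustering without CD27+ cells Bcl2 had 21.6, 7.42 and 7.22 CPM in cluster 7 and 11.4, 26.6 and 9.05 CPM in cluster 8 on the 3 days. Mcl1 had 117.7, 121.8 and 86.4 CPM in cluster 7. Bcl2l1 had 161.8, 160.5 and 119.8 CPM in cluster 7 and 244.9, 188.7 and 160.4 CPM in cluster 8. Of 9 genes measured at E11.5 against E10, 2 were called, beside 6.53% of all genes. Bcl2 was 2.01-fold lower, at the edge of the threshold, and fell short of it with other scaling or without the top cell of each day. Bcl2l11 had 14.01, 3.96 and 4.98 CPM on these days and was 2.81-fold lower at E11.5 than at E10. Of the E10 reads 35.98% came from 1 cell. Without that cell the log2 ratio was -0.87 at E11.5 and -1.20 at E11, each against E10. In the upper library numbers it was -0.81 and -0.53. Bcl2l11 was the only one of 8 measured genes called at E11 against E10, beside 6.84% of all genes. The make-up of HC1 differed between days: in the same clustering, cluster 8 held 57.1%, 40.3% and 38.2% of HC1 cells at E10, E11 and E11.5, and cluster 7 all others. In EC cells Bcl2l1 had 94.6, 92.8 and 95.5 CPM over a changing mix of clusters, of which cluster 1 held 71.4%, 46.7% and 55.7%. At E11.5 it had 121.5 CPM in cluster 1 and 63.8 CPM in cluster 2, and at E10 93.5 CPM in the 10 cells of cluster 1. Between E11.5 and E11, in comparisons chosen after seeing the data, none of 8 measured genes was called in HC1 and none of 7 in HC2, beside 1.62% and 6.32% of all genes.

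**Figure D3:**
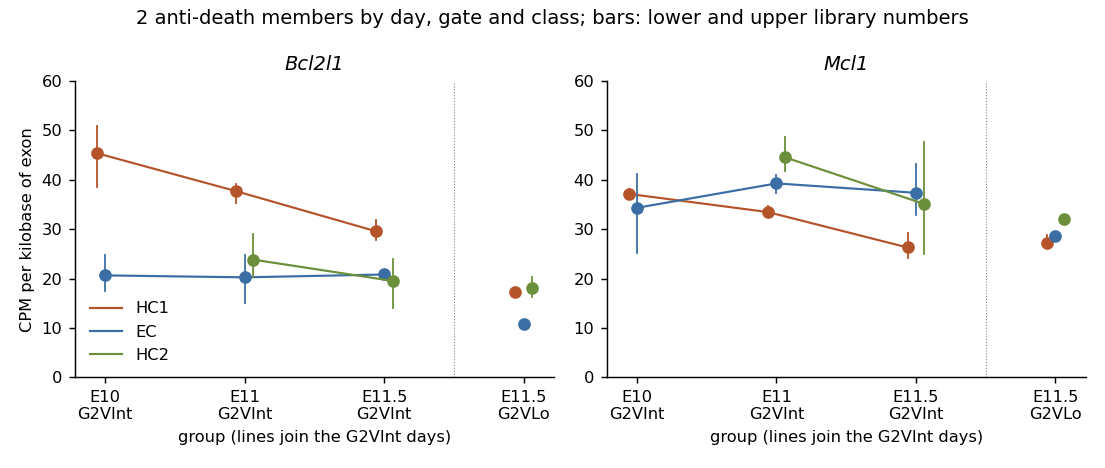
Bcl2l1 and Mcl1 in CPM per kilobase of exon in HC1, EC and HC2 cells; lines join the 3 G2VInt days, points right of the dotted line are G2VLo cells, and bars reach from the lower to the upper library numbers. Bcl2l1 in HC1 was 45.4 at E10 and 29.6 at E11.5 in G2VInt, and 17.4 in G2VLo.

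Over all cells of the gate, Bmf was the only member called at E11.5, with 10.6, 11.4 and 24.3 CPM at E10, E11 and E11.5. The ratio was 2.30 (2.19 to 2.41) over E10, beside 9.3% of all genes called, and 2.14 (2.06 to 2.22) over E11, beside 7.65%. The second call was lost with the mean of per-cell CPM (log2 ratio 0.96) and in the lower library numbers (0.98). EC cells, which are high in Bmf, made up 16.1%, 11.54% and 43.7% of the gate on these days, and the part of this make-up in the result was not tested. Inside HC1 the level was 8.16, 8.21 and 10.1 CPM. None of 9 measured genes was called at E11 against E10, beside 4.95% of all genes.

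HC2 cells were set against HC1 cells, and Bid and Bcl2l11 were the members called higher, both in the G2VInt gate only. Of 8, 8 and 9 measured genes, 3, 3 and 1 were called at E11 and E11.5 in G2VInt and in G2VLo, beside 23.7%, 23% and 15% of all genes. A call was thus common between these classes, and nothing particular to the family is read from it. The immediate-early and stress list had 8, 8 and 3 of 13 measured genes higher in HC2 and none lower in these groups, and its part in the results was not tested. Bid had 147.5 CPM in HC2 and 64.1 in HC1 cells at E11. At E11.5 it had 152.1 CPM in HC2 and 65.5 in HC1 cells of G2VInt, and 140.5 CPM in HC2 and 71.97 in HC1 cells of G2VLo. The ratios were 2.30, 2.32 and 1.95, the last just under the threshold. In the lower library numbers of E11.5 G2VInt the log2 ratio was 0.82. Bmf was low in HC2, with 1.69, 4.95 and 1.85 CPM at E11 and E11.5 in G2VInt and in G2VLo, against 8.21, 10.1 and 11.3 in HC1 cells. Its call at E11.5 in G2VInt was lost with other scaling and turned to a log2 ratio of 0.0392 with the mean of per-cell CPM; without the HC1 cell with the most Bmf reads it was -0.62. In G2VLo the log2 ratio of Bmf was -2.61, and -3.63 without the top HC2 cell. Bcl2 had 6.13, 5.40 and 10.4 CPM in HC2 and was called only at E11, 2.57-fold lower than in HC1 (log2 ratio -1.36, and -2.11 without the top HC2 cell). HC2 was not the same mixture in both gates: in the clustering without CD27+ cells, cluster 10 held 52.3% and cluster 11 29.5% of HC2 cells in E11.5 G2VInt, and cluster 9 held 63.9% in G2VLo.

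Bcl2l11 in HC2 rested on few cells. Its G2VInt cells had 94.9 CPM on E11 and 89.6 CPM on E11.5, against 22.4 CPM in its G2VLo cells. HC1 cells of the same 3 groups had 3.96, 4.98 and 17.4 CPM. The ratios were 23.97, 17.98 and 1.29. At E11 the log2 ratio was 4.58, 4.19 without the top HC2 cell, which held 27.7% of the reads, and 5.25 without the top HC1 cell. In E11.5 G2VInt, however, 1 HC2 cell gave 62.02% of the reads, the median cell had 3.13 CPM, and a read was found in 38.6% of cells. Without that cell HC2 had 35.1 CPM and the log2 ratio to HC1 was 2.81, against 4.17 with it. In the lower library numbers it was 0.91. At E11.5 in G2VInt, 12 of 26 HC2 cells of cluster 10 (in the clustering of all cells) and 4 of 18 of the other clusters had at least 10 CPM. In G2VLo these were 3 of 11 and 8 of 25. In the clustering of all cells, Bcl2l11 in cluster 10 had 144.9 CPM on E11 and 164.4 CPM on E11.5 in G2VInt, and in cluster 11 25.9 and 9.96 CPM. The E11.5 value of cluster 10 rests on 1 cell with 67.7% of its reads, and the median cell had 5.82 CPM. In the clustering without CD27+ cells, cluster 10 had 88.7 CPM on E11 and 23.3 CPM on E11.5.

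**Figure D4:**
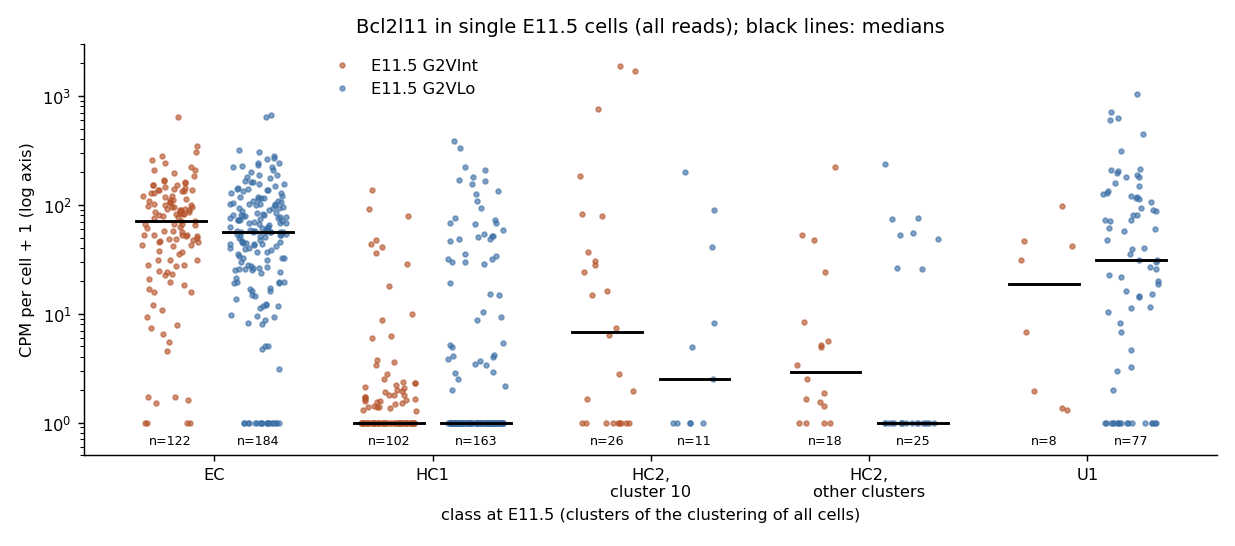
Bcl2l11 in single E11.5 cells, as CPM per cell plus 1 on a log axis, by class and gate (G2VInt left, G2VLo right); black lines are medians and n is the number of cells. The median was 70.3 CPM in EC cells of G2VInt and 55.01 in EC cells of G2VLo and 0 in HC1 cells of both gates, and 3 HC2 cells of cluster 10 (in the clustering of all cells) stand above the other HC2 cells.

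Beside the shares of all genes given for HC2 against HC1, 2, 2 and 2 of the 7 measured other BCL2 family genes were higher in HC2 at E11 and E11.5 in G2VInt and in G2VLo, Pmaip1 (Noxa, which targets Mcl1) and Bnip3 each time, and 0, 2 and 0 were lower. Pmaip1 had 57.9 CPM in HC2 and 2.74 CPM in HC1 cells in E11.5 G2VInt. Of the measured apoptosome and caspase genes 2, 2 and 1 were higher and none lower. Of the 9 transcriptional regulators 4, 3 and 3 were higher and none lower. Gata1, the erythroid factor known to act on Bcl2l1, had 317.4 CPM in HC2 and 6.60 CPM in HC1 cells of E11.5 G2VInt. Bcl2l1 had 89.5 CPM in HC2 and 135.6 CPM in HC1 cells of that group. A link between the levels of these genes was not tested.

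U1 cells, which carry macrophage genes, were compared with HC1 cells in G2VLo, where there were 77 U1 cells. Of 7 measured members 2 were called, both higher, beside 41.9% (13% higher, 28.9% lower) of all genes. Mcl1 had 220.9 CPM in U1 and 93.2 in HC1 cells, a ratio of 2.37 (2.30 to 2.45), and Bcl2l11 had 100.8 and 17.4 CPM in the same 2 classes, a ratio of 5.78 (5.43 to 6.16). Bcl2 was nearly absent from U1, with 1.29 CPM in U1 and 6.15 in HC1 cells and a read in 3.90% and 19.6% of them, both under the limit of 10 CPM. Beside the same share of all genes, of the 7 measured other BCL2 family genes 2 were higher and 4 lower. Pmaip1 had 101.1 CPM in U1 and 11.7 CPM in HC1 cells, and Bok 3.31 CPM in U1 and 37.9 CPM in HC1 cells. All genes had a median log2 ratio of -0.48 in this comparison. The 15 immediate-early and stress genes summed to 6039 CPM in U1 and 2291 in HC1 cells; their part in these results was not tested.

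The gate asks how the family differs between cells with intermediate and low Gata2 reporter at E11.5. Over all cells, none of 9 measured members was called, beside 3.34% of all genes, whose log2 ratios had a median of 0.18. The widest ratios among the 9 were those of Bbc3, with 15.4 CPM in G2VInt and 8.26 in G2VLo (log2 ratio 0.89), and of Bcl2l1, with 105.9 and 62.2 CPM in the same gates (log2 ratio 0.77). Bcl2l1 was higher in G2VInt in each population compared, by a log2 ratio of 0.98 in cluster 7, 0.79 in cluster 8, 0.86 and 0.61 in EC clusters 1 and 2 and 0.11 in HC2, never past 2-fold. The value in HC2 was below the median of all genes in that comparison (0.13), and in the upper library numbers of HC2 Bcl2l1 had 64.3 CPM in G2VInt and 93.2 in G2VLo. Cluster numbers here are those of the clustering without CD27+ cells.

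Within populations, 3 ratios passed 2-fold. Bbc3 in cluster 7 had 23.2 CPM in G2VInt and 5.57 in G2VLo, a ratio of 4.16 (3.57 to 4.88), as 1 of 7 measured members beside 5.58% of all genes. Bcl2l11 in cluster 8 had 7.98 CPM in G2VInt and 23.1 in G2VLo, 2.90-fold lower, as 1 of 6 beside 4.99%; the log2 ratio was -0.19 in the lower library numbers. Bcl2l11 in HC2 had 89.6 and 22.4 CPM in the same gates, 1 of 8 beside 12%. That last log2 ratio of 2.00 was 0.64 without the 1 cell named above and -1.31 in the lower library numbers. None of 9 members was called in EC cluster 1 (4.29% of all genes) or in EC cluster 2 (1.67%). In HC1 as a whole, a comparison chosen after seeing the data, Bbc3 had 17.7 CPM in G2VInt and 6.44 in G2VLo and Bcl2l11 4.98 and 17.4. These 2 of 8 measured members were called, beside 2.74% of all genes, and the log2 ratio of Bcl2l11 was -0.69 in the lower library numbers. The immediate-early and stress genes summed to 1112 CPM in HC1 cells of G2VInt and 2291 in those of G2VLo, and mitochondrial reads were 2.54% and 5.81% at the median. The part of either in these ratios was not tested.

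**Figure D5:**
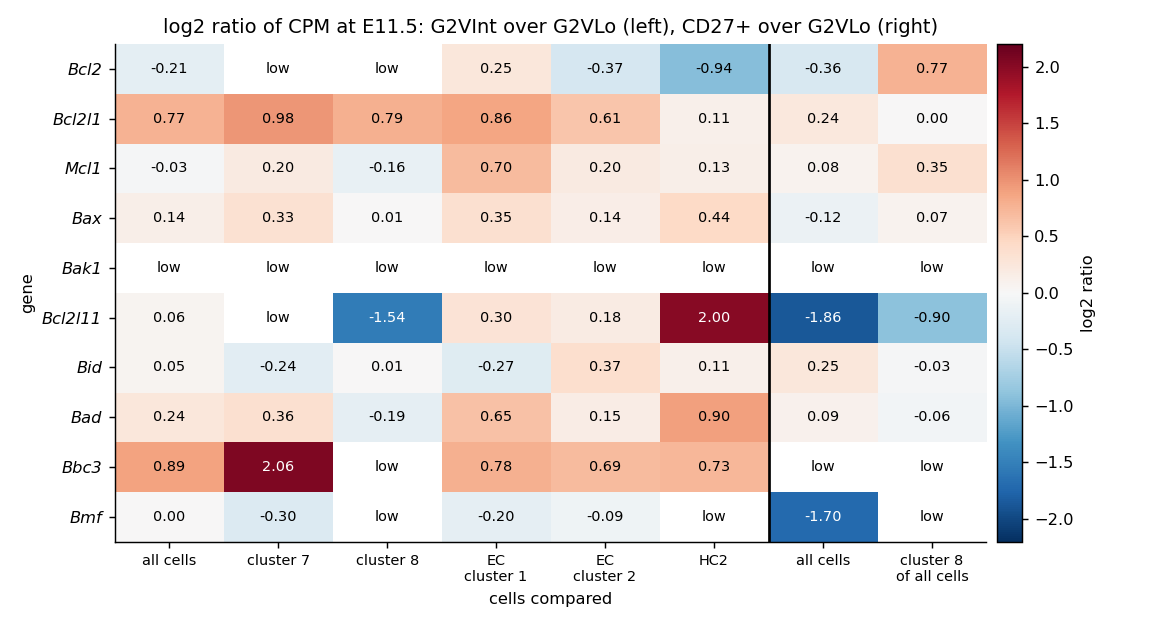
log2 ratios of CPM at E11.5, G2VInt over G2VLo in 6 populations and CD27+ over G2VLo in 2; red is higher in the first-named group, and low marks a gene under the limits in both. Bcl2l1 is red in each G2VInt column and Bbc3 in each where it was measured, while Bcl2l11 is -1.54 in cluster 8 and 2.00 in HC2.

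CD27 marks early stem cells and lymphocytes, and the CD27+ group was compared with both Venus gates of the same day. Bcl2l11 and Bmf were the called members, both lower. Bcl2l11 had 16.2 CPM in CD27+, 61.6 in G2VInt and 58.95 in G2VLo cells, and Bmf 7.44, 24.3 and 24.3 CPM in the same groups. The level in CD27+ was 3.63-fold and 3.26-fold lower than in G2VLo, as 2 of 8 measured members beside 7.98% (2.07% higher, 5.92% lower) of all genes. Against G2VInt it was 3.80-fold and 3.27-fold lower, as 2 of 9 beside 9.99% (1.7% higher, 8.29% lower); both comparisons share the CD27+ cells. A read of Bmf was found in 17.6% (11.3 to 25.7) of CD27+ and 37.3% (32.9 to 41.8) of G2VLo cells. The summed endothelial list was 1839 CPM in CD27+, 4501 in G2VInt and 3273 in G2VLo cells. Cluster 8 in the clustering with every cell held 69 CD27+ cells and was compared with its G2VLo cells; there none of 7 measured members was called, beside 3.22% of all genes. In it Bcl2l11 had 11.52 CPM in CD27+ and 21.5 in G2VLo cells, Bcl2 15.4 and 9.08, Mcl1 128.6 and 100.6, and Bcl2l1 86.7 and 86.5 CPM. Bmf, at 2.08 CPM in CD27+ and 7.51 CPM in G2VLo cells of that cluster, was under the limit in both.

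Genes whose level was most like that of a member were sought over 14 units of group and cluster with at least 20 cells each, on log2(CPM + 1), among 10633 genes. The units share the classes and, in part, library blocks, so the correlations are descriptions. High values were common for some members. Pearson's r was above 0.8 for 5.77% of the genes searched with Bid, 3.41% with Bmf, 3.18% with Bcl2l1 and 1.76% with Bcl2. For each other member it was so for at most 0.78%. Bcl2 was most like Cd81, Sh2d3c and Lama4 (Pearson's r 0.927, 0.927 and 0.925). Bcl2l11 was most like Bin1, Tubb2b and Errfi1 (Pearson's r 0.962, 0.942 and 0.937), Bmf like Mapkbp1, Aplp2 and Hoxd3os1 (Pearson's r 0.948, 0.938 and 0.933) and Bid like Rgs14, Slc2a3 and Gpx1 (Pearson's r 0.977, 0.972 and 0.970). Bcl2l1 was most like Nfyc, Nup214 and Mief1 (Pearson's r 0.954, 0.933 and 0.927), and Mcl1 like Spire1, Tbc1d2b and Fnip2 (Pearson's r 0.901, 0.897 and 0.890). Bax was most like Ndufa1, Prelid1 and Cib1 (Pearson's r 0.934, 0.918 and 0.880), Bak1 like Ndufb7, Mydgf and Higd2a (Pearson's r 0.915, 0.898 and 0.891), Bbc3 like Ctdnep1, Med15 and Zfp276 (Pearson's r 0.883, 0.824 and 0.7997) and Bad like Emc9, Capn1 and Galnt6 (Pearson's r 0.805, 0.7999 and 0.781), the last with the lowest first value of the 10.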

How the data were processed

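RNA of single cells was sequenced from Nextera XT libraries on an Illumina HiSeq, per the labels' protocols. The deposited file holds raw counts of reads per Ensembl gene, made by the authors with HTSeq 0.6.0 on GRCm38, per the submitters' processing notes; the aligner, annotation release, strand setting and read filters are not given in the sources used here, and no molecular identifiers are mentioned. Each column was tied to a cell by its title, and group, cluster and class were read from its labels; 0 columns belonged to no listed cell. GENCODE M21 gave symbols and exon lengths, and the 935 genes it did not match held 0.0960% of reads.

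Counts were summed over the cells of a unit with at least 10 cells and divided by the total (CPM), with Python 3.11.15, numpy 2.4.6, pandas 2.3.3, scipy 1.17.1 and matplotlib 3.10.9. Depth ran from 117369 to 6999570 reads per cell, so shares were taken after thinning every cell to 100000 reads (random seed 63). Since each of the 5 groups is 1 sample, no test was run and "called" means past 2-fold. A count of 0 allows up to 3 counts. Alternatives were TMM scaling (edgeR 4.0.16 with R 4.3.3), median-of-ratios scaling, the mean of per-cell CPM, totals without mitochondrial reads, no filter, lower or upper library numbers (a group split at the middle of the library numbers in its titles), no U1 and U2 cells, and thinning to 50000 reads or none. Comparisons of E11.5 with E11 inside HC1 and HC2, of the 2 Venus gates inside HC1, and sums without the cell with the most reads were added after seeing the data. Copies of members were sought with blastn 2.17.0 at 95% identity over 100 bases, and matches were found only to genes that overlap them.

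The members, lists and markers were chosen with earlier results of these data known. Of a list, members with the largest ratios past 2-fold were named; 1 gene is not reported here. The genes most like a member were the 3 highest Pearson correlations among genes with at least 10 CPM in a unit, passing over pseudogenes, unnamed, mitochondrial and ribosomal protein genes.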

Additional observations from a re-analysis of the deposited data

Results flagged for a closer look

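In 2 cases a member moved in opposite directions under the same contrast in different cells, by more than 1.5-fold each way. The differences were not tested, since each group is 1 sample. Bcl2l11 in G2VInt against G2VLo cells at E11.5 had a log2 ratio of 2.00 in HC2 and of -1.54 in cluster 8; a single HC2 cell held 62.02% of the reads behind the first value. Bcl2 in HC2 against HC1 cells had a log2 ratio of 0.75 in E11.5 G2VLo and of -1.36 in E11 G2VInt. In the clustering without CD27+ cells, which also gives the cluster 8 above, cluster 9 held 63.9% of HC2 cells in G2VLo and cluster 10 held 55.6% at E11.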

How the results depend on the processing

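No paired analysis was possible because each group is 1 sample and replicate numbers only name cells. The count of called members was recomputed 90 times over 12 comparisons, and 78 counts stayed within 1.5 times. G2VInt against G2VLo over all cells had 0 calls, 1 without a filter and 1 in the upper library numbers. E11.5 against E10 had 4 calls in place of 1 in the upper library numbers, and E11.5 against E11 had 0 in place of 1 with the mean of per-cell CPM and 0 in the lower library numbers. The 5 gate comparisons within clusters and HC2 had 5 calls in place of 3 with the mean of per-cell CPM, 10 without a filter, 6 in the lower and 6 in the upper library numbers. The day comparisons in HC1 had 1 in place of 3 in the upper library numbers. CD27+ against G2VLo in cluster 8 had 1 in place of 0 without a filter and 1 in the upper library numbers; leaving out clusters mostly of U1 or U2 cells removes no cell there and was not run. The 40 called ratios of members were each recomputed under the alternatives; 6.44% of these values (21) were under 2-fold, and 2 turned: Bmf in HC2 against HC1 cells of E11.5 G2VInt, to a log2 ratio of 0.0392 with the mean of per-cell CPM, and Bcl2l11 in G2VInt against G2VLo cells of HC2, to -1.31 in the lower library numbers. The cause was not tested. TMM shifted the log2 ratios of all genes by 0.40 for U1 against HC1 and by -0.14 for G2VInt against G2VLo. Of 50 shares, 46 moved beyond their interval with all reads and 22 with 50000 reads per cell. Bak1, Bbc3 and Bmf lay near or under 10 CPM in many units. So did Bcl2 in HC2 cells and in U1 cells of G2VLo, and Bcl2l11 was under 10 CPM in HC1 cells of G2VInt at E11 and E11.5.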
